A study of Mus musculus with 24 samples.

Results

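The comparison set macrophages without liver X receptors against macrophages with them after both had been loaded with cholesterol by acetylated low-density lipoprotein (AcLDL). It used 6 of the 24 libraries of the series, chosen by genotype and treatment label: 3 DKO and 3 LXR-positive libraries given AcLDL at 50 µg/ml. All groups were macrophages grown from bone marrow of C57BL/6J mice aged 8 to 12 weeks, with L929-conditioned medium as the source of growth factor. DKO, also labelled LXR negative, stands for the double knockout of LXRα and LXRβ. LXR positive is the label of the C57BL/6J controls, which carried no deletion named in the labels. The 6 libraries given vehicle, 3 of each genotype, served as the other reference. Of the remaining libraries, those labelled GW3965 had a dose of 1 µM and those labelled KLA had 100 ng/ml. They enter below in counts over 4 treatments, in values of Pole2 and in a fit to all 24 libraries. Vehicle, GW3965 and KLA carried a time of 17 hours and day 5, and AcLDL carried neither. Whether vehicle and AcLDL libraries were matched in time is therefore not known. The sources used here do not give the deleted exons, the backcross history of the DKO line or the duration of the AcLDL treatment. Libraries came from individual mice, and n = 3 mice in every group below. Values are the authors' normalized counts (gene counts divided by a size factor per library), as mean ± SD.

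Liver X receptors LXRα (Nr1h3) and LXRβ (Nr1h2) are nuclear receptors that pair with RXR and bind oxysterols, oxidized derivatives of cholesterol. In macrophages they switch on genes of cholesterol export, lipoprotein remodelling and fatty acid desaturation, and without a ligand they can hold the same genes down together with corepressors. AcLDL enters macrophages through scavenger receptors, releases cholesterol in lysosomes, and at the same time lowers the activity of SREBP2, the factor that drives cholesterol synthesis. The series addresses gene expression that depends on LXR, and this comparison asks how the genotypes differ once the cells are loaded.

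The DKO AcLDL libraries were deeper, with 15263971 to 18739975 reads against 8280899 to 8723714 in the LXR-positive ones. They had 24416 to 24945 genes with a read against 21627 to 21766. Mitochondrial transcripts took 14.2 to 14.7% of reads against 16.4 to 20.3%. Depth and genotype cannot be told apart in these groups, and each call was also made after thinning every library to 8280899 reads. Csf1r, Adgre1 and Spi1, which macrophages express, were high in all 6 libraries, with 17809 to 26511 normalized counts for Csf1r. They belong to a list of 12 macrophage genes, of which 9 were on the DKO-lower side, as were 7686 of all 16026 genes. In that list 3 genes were called lower and 1 higher, as given below, where 4.85% and 3.76% of all genes were. Transcripts of 4 Y-linked genes were present in both groups, with 1006 to 1376 normalized counts of Ddx3y.

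Under AcLDL, 1379 of 16026 genes tested differed between the genotypes at an adjusted p under 0.05, which is the threshold for a called gene throughout (8.6% of genes; 602 higher in DKO, 3.76%, and 777 lower, 4.85%). The median log2 difference of all genes, DKO minus LXR-positive, was 0.02. Groups did not overlap for 4973 genes (31%). The count depended on single libraries: without DKO AcLDL library 2 it was 123, without library 1 of that group 424, and without LXR-positive AcLDL libraries 1, 2 and 3 it was 639, 283 and 890. Of the 1379 calls, 118 held without any single library (65 higher and 53 lower), and 800 were among the 820 calls made at equal depth. Of 90 called genes among those chosen for naming, 23 lost their call at equal depth (adjusted p 0.0534 to 0.264). Among them were Apoc1, Eepd1, Acsl3, Nr1h3, Pros1, Tlr2, Cfp, Mmp9, Atp6v1a, Ddit3, Hsp90b1, Gpi1, Fcgr3, Ctsg, Snord70 and Plag1, and near the targeted loci Akt1s1, Rras, Prr12, Acp2, Madd and 2810002D19Rik. Among vehicle libraries the same test called 47 genes (0.293%), 35 higher in DKO (0.218%) and 12 lower (0.0749%). That AcLDL gave more calls than vehicle is not itself a test of the difference. The test of it, the AcLDL genotype difference minus the vehicle one, called 4 genes (0.025%), with 543 genes at an unadjusted p under 0.05, 7 calls with the mouse as a random block and 13 by DESeq2.

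**Figure D1:**
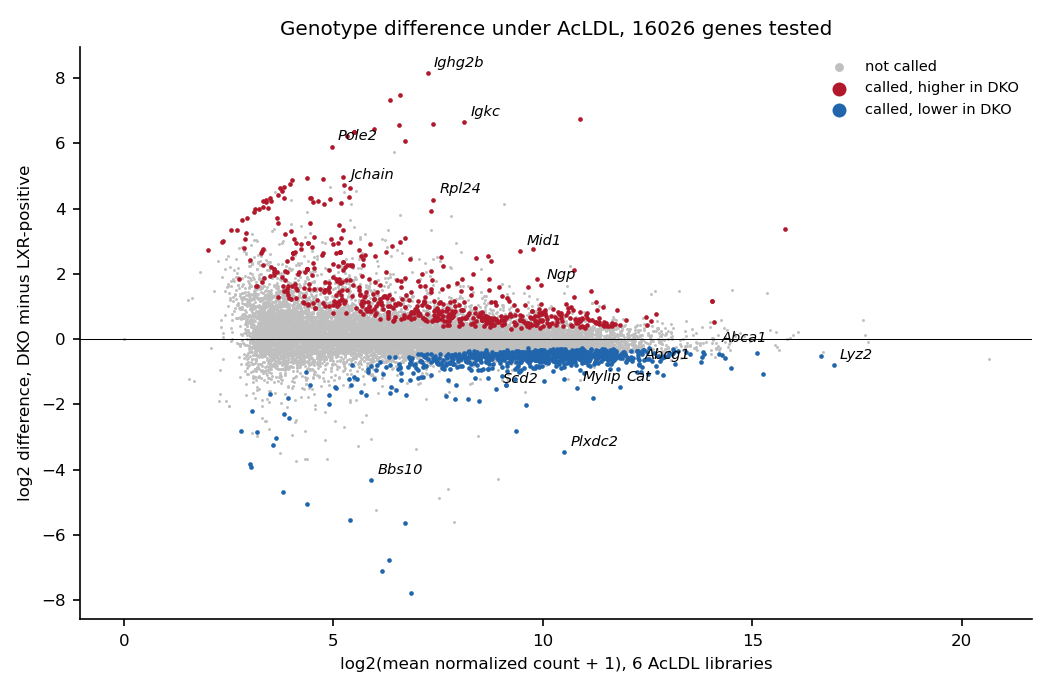
Log2 difference between DKO and LXR-positive macrophages under AcLDL (vertical axis) against the log2 mean normalized count over the 6 libraries (horizontal axis), 1 point per gene, with red for genes called higher and blue for genes called lower in DKO. Calls lower in DKO lie mostly at high levels and small differences, and the largest positive differences belong to low or absent transcripts of the LXR-positive libraries, immunoglobulin genes among them.

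The targeted genes were both still counted in DKO libraries. Nr1h2, which encodes LXRβ (chromosome 7, 44549616 to 44553951, GRCm38), stood at 553, 438 and 482 normalized counts in the LXR-positive libraries and at 298, 279 and 351 in DKO. Every DKO library was below every LXR-positive one (log2 difference -0.67 ± 0.16 SE, adjusted p = 0.025). Nr1h3, which encodes LXRα (chromosome 2, 91184061 to 91202834), went the other way, with 140, 128 and 153 in LXR-positive and 243, 207 and 217 in DKO libraries (0.66 ± 0.17, adjusted p = 0.033). Counts per gene do not show which exons the reads came from, so a transcript that lost an exon would still be counted. Neither call held without DKO AcLDL library 2 (adjusted p 0.0991 to 0.114), and both also ended without DKO library 1 (0.0821 to 0.113) or any LXR-positive AcLDL library (0.0505 to 0.11). The Nr1h3 call also ended without DKO AcLDL library 3 (adjusted p = 0.0567) and at equal depth (0.146). Nnt, which is partly deleted in C57BL/6J mice, had 166, 178 and 112 normalized counts in LXR-positive and 267, 297 and 176 in DKO libraries and was not called (0.69 ± 0.25, adjusted p = 0.11).

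RXR-LXR pairs bind DNA at direct repeats of a half-site with a short spacer. The promoters of 4 LXR target genes that the results below return to contain such a repeat, searched on both strands as GGTNA, any 5 bases, GGTNA. They are shown from RefSeq (GRCm38.p6), 5′ to 3′ on the strand of the gene, with the match in capitals; all 4 matches read on the opposite strand.
Abca1, chr4:53159918-53159992, minus strand, match 67 to 53 bases before the start: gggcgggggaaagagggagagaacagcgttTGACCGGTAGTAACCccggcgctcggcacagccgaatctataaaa
Srebf1, chr11:60210609-60210683, minus strand, match 182 to 168 bases before the start: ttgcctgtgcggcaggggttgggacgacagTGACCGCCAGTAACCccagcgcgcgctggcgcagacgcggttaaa
Fasn, chr11:120824728-120824797, minus strand, match 225 to 211 bases before the start: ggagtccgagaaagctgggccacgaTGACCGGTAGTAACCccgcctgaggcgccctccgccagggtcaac
Acsl3, chr1:78657683-78657757, plus strand, match 112 to 98 bases before the start: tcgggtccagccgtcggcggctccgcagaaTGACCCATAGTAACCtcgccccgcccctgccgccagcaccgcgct
Of the 24 genes of the LXR target list, 16 had a promoter in the table (21 promoters of 300 bases), and 4 of these promoters (19%) held a match, against 236 of 32851 promoters of all genes (0.718%). A match describes these letters and is not a site shown to be bound.

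The direct LXR targets of cholesterol export were lower in DKO macrophages under AcLDL, with the exception of Abca1, whose difference was small. Of 24 LXR targets tested, 10 were called lower (Apoc1, Scd2, Mylip, Apoc2, Pltp, Arl4c, Acsl3, Abcg1, Mertk and Eepd1) and 2 higher (Tgm2 and Nr1h3). Of all genes tested, 4.85% were called lower and 3.76% higher. The list's median log2 difference was -0.47, against 0.02 over all genes. The same list had a median of 0.16 between the vehicle groups. Since these genes are on the list because LXR is known to act on them, the list was not chosen blindly with respect to genotype.

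Abca1, the transporter that hands cholesterol to apolipoprotein A-I, had 19263, 20609 and 19101 normalized counts in LXR-positive and 15807, 17787 and 14851 in DKO libraries. The groups did not overlap, and the difference missed the threshold (-0.29 ± 0.10, adjusted p = 0.090). With vehicle the order was the opposite, 9154, 8698 and 8200 against 14347, 16732 and 14223 (0.80, adjusted p = 0.0031). The AcLDL genotype difference minus the vehicle one was -1.08 (adjusted p = 0.021). Abcg1 exports cholesterol to high-density lipoprotein. It stood at 6295, 6936 and 5819 against 4173, 3295 and 3519 in DKO (-0.80 ± 0.12, adjusted p = 0.0062), and its difference from the vehicle one was -1.40 (adjusted p = 0.021). Arl4c, a small GTPase that aids ABCA1-dependent efflux, had 4214, 4213 and 3859 against 2134, 2106 and 2228 (-0.92 ± 0.10, adjusted p = 0.00091). Every DKO library of Arl4c was below every LXR-positive one. Eepd1, which promotes transport of ABCA1 to the cell surface, was lower by less (690.6 ± 36.0 against 491.0 ± 77.5, -0.50 ± 0.14, adjusted p = 0.041).

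Mylip, also called Idol, is a ubiquitin ligase of lipoprotein uptake. It had 2797, 2413 and 2696 normalized counts in LXR-positive and 917, 849 and 1070 in DKO libraries under AcLDL (-1.48 ± 0.12, adjusted p = 8.8e-05), with the smallest adjusted p on the list. It was also lower with vehicle (-0.75, adjusted p = 0.020), and lower in DKO in all 4 treatments of the series.

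Among the apolipoprotein genes of the Apoe cluster, Apoc2 and Apoc1 were called and Apoe was not. Apoc2, the cofactor of lipoprotein lipase, had 499, 451 and 424 against 151, 183 and 283 normalized counts in DKO (-1.20 ± 0.23, adjusted p = 0.012). Apoc1 was close to the limit of detection in both groups (14.4, 8.90 and 14.6 against 3.83, 0.779 and 1.93) (-2.19 ± 0.58, adjusted p = 0.040). Apoe itself was not called, at 42983, 46336 and 43559 against 52003, 46457 and 57735 (0.23 ± 0.15, adjusted p = 0.36). Pltp, which transfers phospholipid between lipoproteins, was steady in LXR-positive libraries at 8907, 8975 and 8707 and scattered in DKO at 4516, 2940 and 6538 (-1.0 ± 0.25, adjusted p = 0.030). Pltp shares 495 exon bases with Ctsa on the opposite strand, and the sources used here do not give the strand setting of the counting.

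Among targets in the uptake of dying cells, Mertk, a receptor for phosphatidylserine-bridging ligands, had 3737, 4057 and 3528 against 2214, 1938 and 2544 (-0.76 ± 0.11, adjusted p = 0.0053). Tgm2, transglutaminase 2, was higher in DKO, with 450, 562 and 535 against 967, 1025 and 660 (0.76 ± 0.18, adjusted p = 0.024). Lpl (lipoprotein lipase), Cd5l, Lpcat3, Smpdl3a and Gramd1b were not called (log2 differences from -0.48 to 0.28, adjusted p 0.061 to 0.64). Abcg1, Arl4c, Mylip and Mertk kept their calls without any single library. Of the 12 calls of the list, 7 were lost without DKO AcLDL library 1 (adjusted p 0.0592 to 0.12), 7 without library 2 (0.0697 to 0.177) and 4 without library 3 (0.051 to 0.0696). The number lost was 7 (0.0619 to 0.116), 7 (0.0603 to 0.11) and 6 (0.0502 to 0.0963) without LXR-positive AcLDL library 1, 2 or 3. Apoc1 also lost its call without LXR-positive vehicle library 1 or DKO vehicle library 1 (0.0542 and 0.0525), and Eepd1 without LXR-positive vehicle library 3 or DKO vehicle library 2 (0.0549 and 0.0527).

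**Figure D2:**
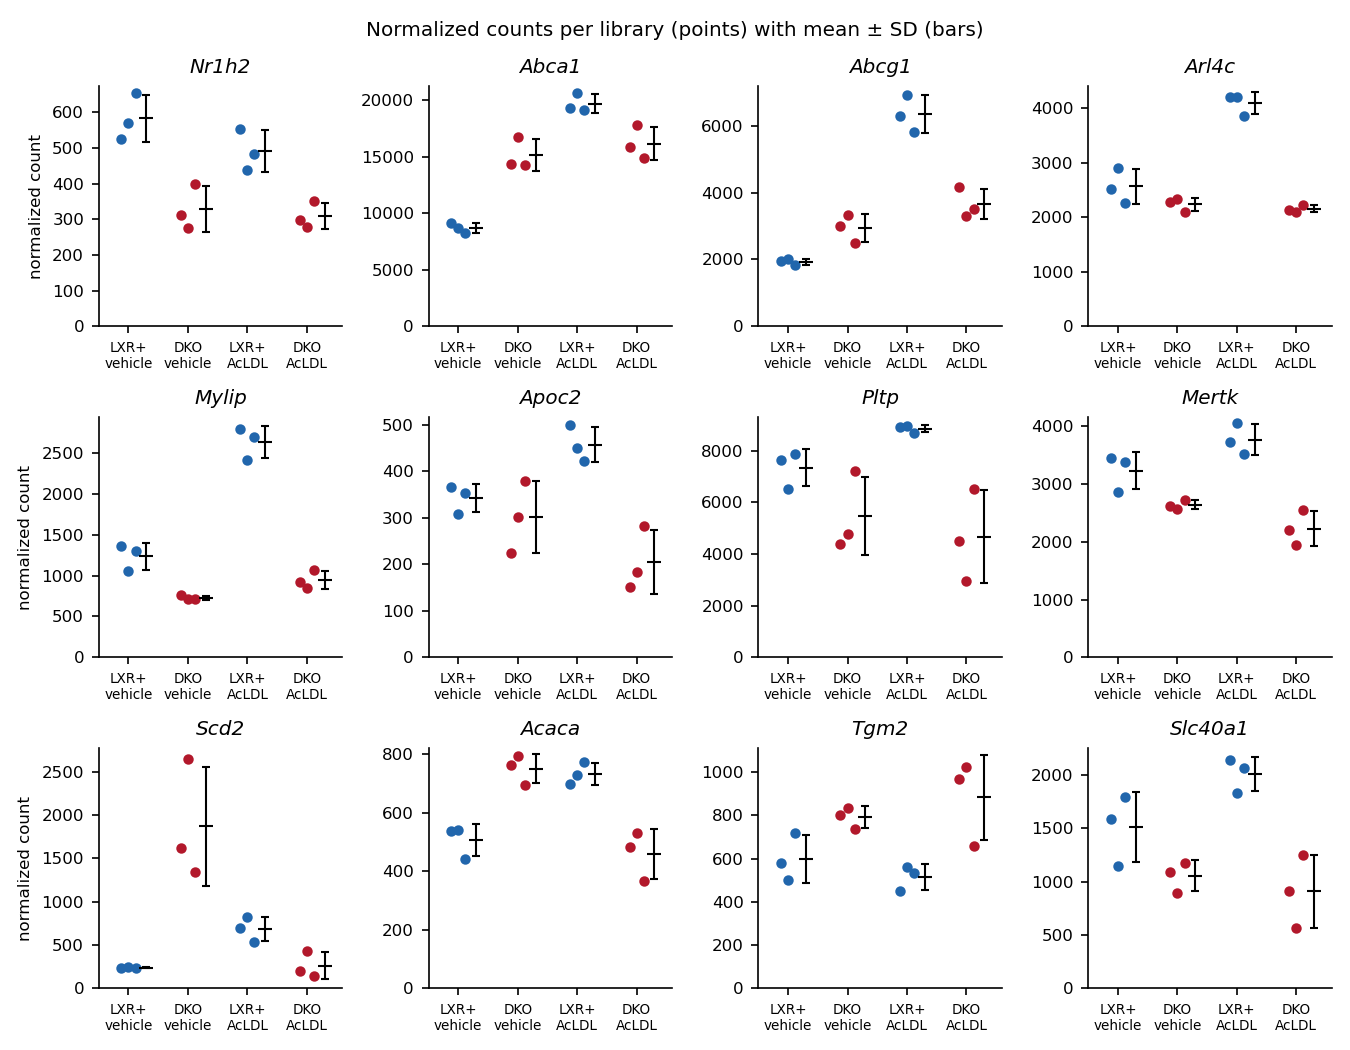
Normalized counts of 12 genes in each vehicle and AcLDL library (points; blue for LXR-positive and red for DKO), with the mean and SD of each group of 3 (bars), each panel starting at 0. In DKO libraries Abca1 and Abcg1 lie above the LXR-positive ones with vehicle and below them with AcLDL, and Mylip lies below in both.

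Of 21 fatty acid synthesis genes tested, 3 were lower in DKO under AcLDL (Scd2, Acaca and Acsl3) and none was higher, where 4.85% of all genes were called lower, with a median of -0.22. Scd2, a stearoyl-CoA desaturase, had 697, 822 and 535 normalized counts in LXR-positive and 201, 436 and 147 in DKO libraries (-1.52 ± 0.34, adjusted p = 0.023). With vehicle it was the reverse and larger, at 238, 245 and 232 against 1618, 2646 and 1344 (2.91, adjusted p = 0.0027), and the AcLDL difference minus the vehicle one was -4.43 (adjusted p = 0.0092). Acaca, the acetyl-CoA carboxylase that commits acetyl-CoA to fatty acid synthesis, had 699, 730 and 773 against 482, 531 and 367 (-0.69 ± 0.14, adjusted p = 0.015). Acsl3, an acyl-CoA synthetase of lipid droplets and the gene of the last promoter printed above, had 292, 245 and 213 against 129, 127 and 151 (-0.87 ± 0.23, adjusted p = 0.039). The other promoters printed above belong to genes without a call: Srebf1 was at 370, 353 and 402 against 348, 369 and 285, and Fasn at 257, 280 and 340 against 296, 309 and 249. All 3 calls ended without LXR-positive AcLDL library 2 (adjusted p 0.0542 to 0.102). Scd2 and Acsl3 also lost theirs without LXR-positive library 1 (0.0619 to 0.116), DKO library 1 (0.0805 to 0.113) or DKO library 3 (0.051 to 0.0512), and Acsl3 without LXR-positive library 3 or DKO library 2 (0.0529 and 0.142).

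Of 27 cholesterol synthesis genes tested under AcLDL, 2 were called, a share near the 8.6% of all genes, 1 higher and 1 lower (Ggps1, which makes geranylgeranyl diphosphate; -0.50 ± 0.12, adjusted p = 0.029), with a median of -0.05. The vehicle groups had a median of 0.64 over the same genes, with DKO higher, and 2 calls, where 0.293% of all genes were called. Hmgcs1, which makes HMG-CoA, had 472, 459 and 463 normalized counts in LXR-positive and 349, 336 and 435 in DKO libraries under AcLDL and was not called (-0.32 ± 0.12, adjusted p = 0.12). With vehicle it had 757, 700 and 837 against 1020, 1271 and 1059 (0.54, adjusted p = 0.12). Its groups did not overlap in either treatment, with DKO lower under AcLDL and higher with vehicle. Under AcLDL, groups did not overlap for 31% of all genes. For Hmgcs1 the AcLDL genotype difference minus the vehicle one was -0.87 and was not called (adjusted p = 0.55). None of the 27 genes was called in that test. Both calls under AcLDL ended without LXR-positive AcLDL library 2 (adjusted p 0.0625 to 0.0985) or DKO library 2 (0.0793 to 0.121), and that of Ggps1 also without library 1 of either group (0.0791 and 0.0909).

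**Figure D3:**
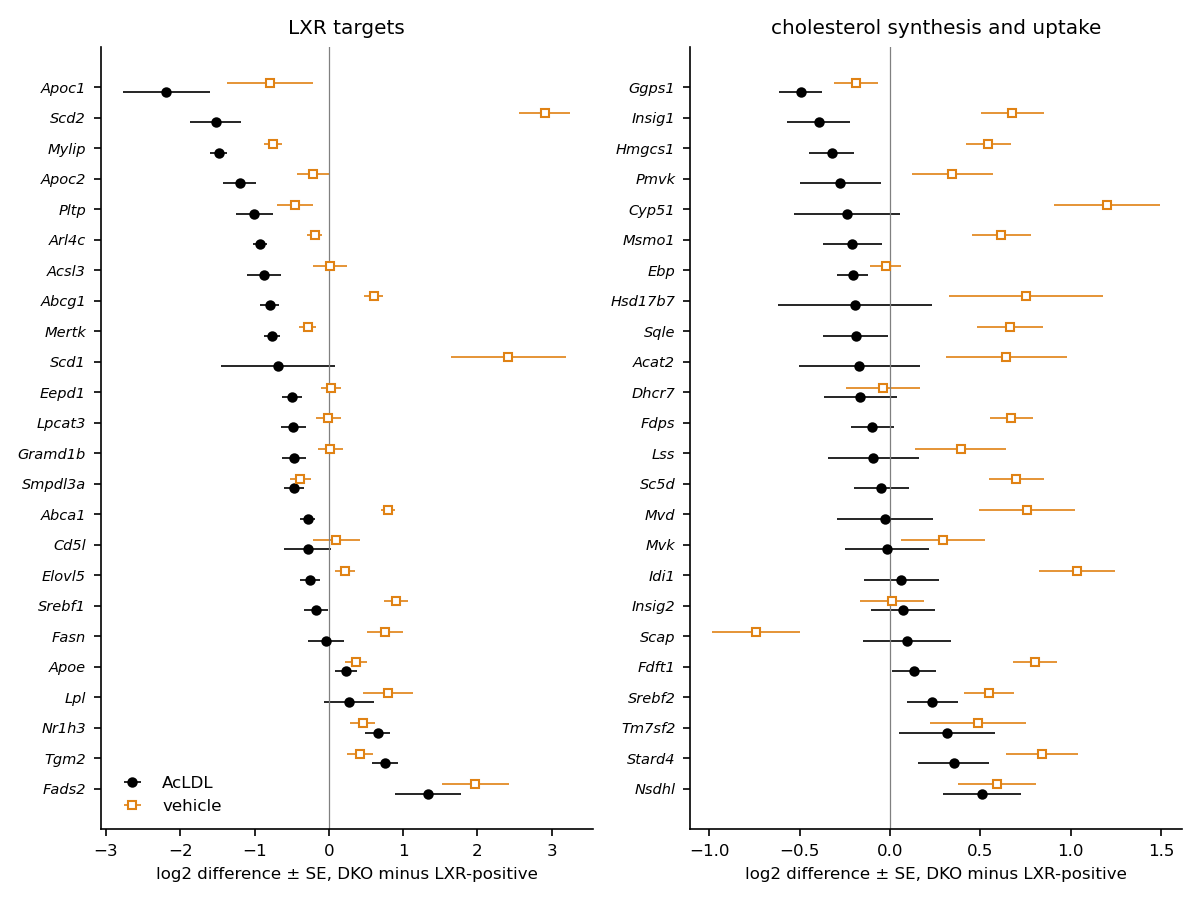
Log2 difference, DKO minus LXR-positive, with its standard error for the LXR targets (left) and 24 of the 27 cholesterol synthesis or uptake genes (right), under AcLDL (black circles) and with vehicle (open orange squares). Most cholesterol synthesis genes lie near 0 under AcLDL (median -0.05) and to the right of 0 with vehicle (median 0.64); both medians are over all 27 genes tested.

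In lipid handling beyond the LXR targets, 2 of 22 genes of lipid droplets and PPAR targets were higher in DKO and none lower, a share near the 8.6% called over all genes. Fabp4, a fatty acid carrier induced by PPARγ, had 139, 81.6 and 216 against 347, 472 and 331 normalized counts (1.48 ± 0.31, adjusted p = 0.017), and Lipe, hormone-sensitive lipase, 153, 171 and 183 against 312, 296 and 278 (0.81 ± 0.18, adjusted p = 0.020). Lipe shares 918 exon bases with 4732471J01Rik on the opposite strand. Of 17 genes of sterol esterification, oxysterols and sterol transfer, Scarb2 (LIMP-2, a lysosomal membrane protein) was lower (5034.5 ± 82.6 against 3228.6 ± 461, -0.65 ± 0.13, adjusted p = 0.014) and none was higher. Among 16 scavenger receptor genes 2 were higher, Cd68 (0.56) among them, and Mrc1 (-0.46) and Scarb2 were lower, and of 18 efferocytosis genes Tgm2 and Itgb5 (0.75) were higher and Mertk and Pros1 (-0.50) lower. Of these, Mertk alone kept its call without every single library; the others lost theirs without DKO AcLDL library 2 (adjusted p 0.0746 to 0.183), and all but Itgb5 without LXR-positive AcLDL library 2 (0.0527 to 0.149). Calls of these lists ended without LXR-positive library 1 for Lipe, Pros1 and Tgm2 (0.0619 to 0.1), without LXR-positive library 3 for Mrc1 and Tgm2 (0.0567 and 0.0502), and without DKO library 1 for Lipe, Cd68, Mrc1, Pros1 and Tgm2 (0.052 to 0.12). That of Pros1 also ended without LXR-positive vehicle library 1 or any DKO vehicle library (0.0557 to 0.0607).

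None of 30 interferon-stimulated genes, 9 MHC class II genes or 12 other chemokine and chemokine receptor genes passed the test by limma, and the smallest adjusted p in these lists was 0.054 (Cxcl14, 1.69 ± 0.49). At an unadjusted p under 0.05 there were 4, 0 and 3 of them, edgeR called 0, 0 and 1, and DESeq2 1, 0 and 2. Their medians were 0.12, -0.31 and -0.20. Beside these and the following counts, 4198 of all 16026 genes had an unadjusted p under 0.05 by limma. Over all genes edgeR called 1189 and DESeq2 1860. Of 18 inflammatory mediators 10 had an unadjusted p under 0.05; limma and edgeR each called 1 and DESeq2 4, with a median of 0.36. The limma call, Cxcl2, a neutrophil attractant, was higher in DKO (38.3, 13.4 and 32.1 against 56.7, 91.2 and 61.2; 1.38 ± 0.33, adjusted p = 0.027). Ccl2 and Ccl7, which attract monocytes, missed the threshold with larger differences: Ccl2 stood at 33.5, 41.6 and 40.9 against 158, 488 and 103 (2.35 ± 0.71, adjusted p = 0.063), and Ccl7 at 6.38, 7.42 and 4.38 against 39.8, 63.1 and 20.0 (2.45 ± 0.72, adjusted p = 0.056). DKO library 2 was the highest for both.

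Toll-like receptor genes that were called were lower in DKO, 3 of 18 tested, with none higher (4.85% of all genes were called lower and 3.76% higher, which also holds beside the other counts here). Tlr7, a sensor of RNA in endosomes, had 7288, 7003 and 7052 against 4693, 4332 and 4978 normalized counts (-0.61 ± 0.10, adjusted p = 0.0086). Tlr4, the receptor of lipopolysaccharide, had 2553, 2872 and 2451 against 2006, 1587 and 1771 (-0.56 ± 0.12, adjusted p = 0.019), and Tlr2, a receptor of bacterial lipoproteins, 888, 890 and 803 against 417, 448 and 619 (-0.82 ± 0.23, adjusted p = 0.045). Groups did not overlap for any of the 3. Of 17 complement genes Cfp (properdin, -0.66, adjusted p = 0.049) was lower. Of 12 alternative activation genes Chil3, a chitinase-like protein of granulocytes and macrophages, was higher (0.91 ± 0.22, adjusted p = 0.027) and Mrc1, the mannose receptor, lower. Of 13 metalloproteinase and inhibitor genes Mmp9 (1.08), Mmp19 (0.81) and Timp2 (0.41) were higher and none lower, with a list median of 0.81. None of the calls on Cxcl2, the Toll-like receptors, Cfp, Chil3, Mrc1 and the metalloproteinase genes held without DKO AcLDL library 2 (adjusted p 0.0528 to 0.2). Without LXR-positive AcLDL library 2 all but that of Tlr7 ended (0.0616 to 0.128). Some also ended without DKO AcLDL library 1 (all but Tlr4 and Tlr7, 0.0576 to 0.143), LXR-positive library 1 (Chil3, Tlr2, Cfp, Mmp9, Mmp19 and Timp2, 0.0505 to 0.135) or library 3 (Mrc1, Chil3, Tlr2, Cfp and Mmp19, 0.0567 to 0.121). Tlr2, Cfp and Mmp9 ended without single vehicle libraries (0.0518 to 0.0629), and Mmp9 without DKO AcLDL library 3 (0.0564).

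The counts of 4 lists here stand beside 4.85% of all genes called lower and 3.76% called higher. Of 25 lysosome genes, Lamp1 (-0.49), Lamp2 (-0.42) and the proton pump subunits Atp6v0d1 (-0.55) and Atp6v1a (-0.32) were called lower and Cd63 (0.66) higher, with a list median of -0.04. Lamp2 had 10523, 10096 and 9686 against 7932, 6851 and 7841 normalized counts (adjusted p = 0.021). Of 21 NRF2 and iron genes 3 were lower and none higher. The largest difference was in Slc40a1, ferroportin, the iron exporter, with 2139, 1830 and 2067 against 910, 567 and 1247 (-1.22 ± 0.25, adjusted p = 0.016). Gclm, a subunit of the enzyme that starts glutathione synthesis, was lower by -0.71 ± 0.14 and Prdx1, a peroxiredoxin, by -0.53 ± 0.11 (both adjusted p = 0.016). In the unfolded protein and ATF4 list, Atf3 (0.80 ± 0.13, adjusted p = 0.0085) and Ddit3 (0.56) were higher and Hsp90b1 (-0.46) lower of 19, and in glycolysis and hypoxia Vegfa (0.83) was higher and Ndrg1 (-0.61) and Gpi1 (-0.35) lower of 21. Every one of these calls ended without DKO AcLDL library 2 (adjusted p 0.0507 to 0.194). Without LXR-positive AcLDL library 2 all but Atf3 and Atp6v0d1 ended (0.0502 to 0.138), and without DKO library 1 all but Atf3, Cd63 and Slc40a1 (0.0502 to 0.133). Without LXR-positive library 1 all but Atf3, Cd63, Slc40a1, Gclm and Prdx1 ended (0.0551 to 0.14), and without library 3 Atp6v0d1, Lamp1, Atp6v1a, Hsp90b1, Ndrg1 and Gpi1 (0.0559 to 0.108). Atp6v1a and Vegfa ended without DKO AcLDL library 3 (0.0515 and 0.0876), and Vegfa, Ddit3 and Hsp90b1 without single vehicle libraries (0.0502 to 0.0606).

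**Figure D4:**
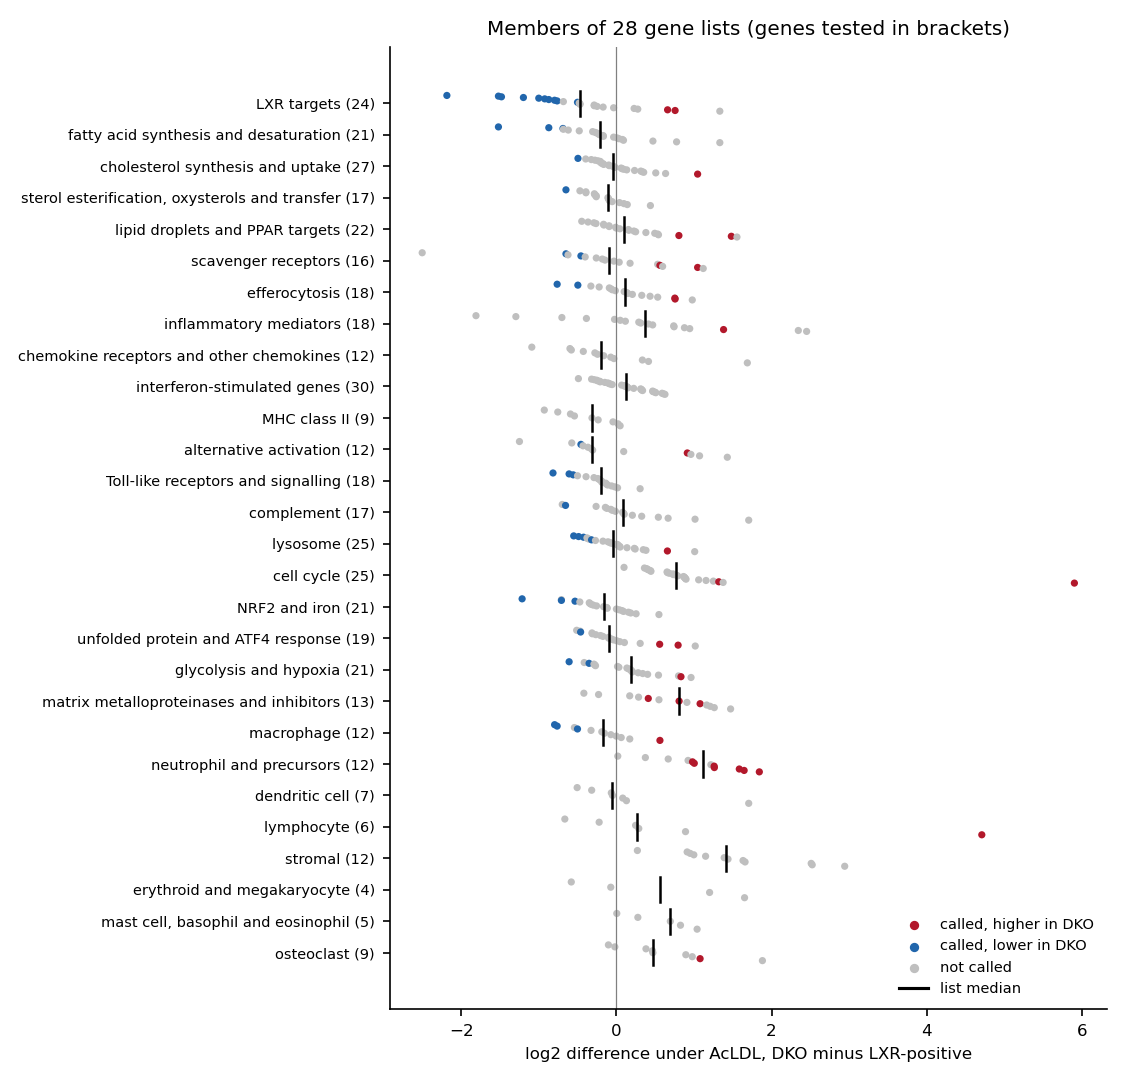
Log2 difference under AcLDL, DKO minus LXR-positive, of every tested member of 20 pathway and 8 cell type lists (points; red for called higher, blue for called lower, grey for not called), with the list median as a black bar. LXR targets lean to the left with a median of -0.47, and the neutrophil list lies to the right of 0 with a median of 1.11.

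All 25 cell cycle genes tested were on the DKO-higher side (median 0.77, against 0.90 with vehicle), as were 8338 of all 16026 genes. Only Mcm2 and Pole2 were called, a share near the 8.6% of all genes. Cell cycle genes can move together from culture to culture, so the 25 are not separate observations. Mki67, the marker of cycling cells, had 3303, 5820 and 1415 normalized counts in LXR-positive and 8871, 13484 and 3981 in DKO libraries, with overlapping groups (1.38 ± 0.71, adjusted p = 0.24). The list's summed level was 13627, 20658 and 9528 against 28826, 33868 and 13652. Library 3 was the lowest and library 2 the highest of both genotypes. Mcm2, a subunit of the replicative helicase, had 327, 239 and 302 against 889, 957 and 435 (1.32 ± 0.34, adjusted p = 0.034), a call that ended without any one of the LXR-positive AcLDL libraries (0.066 to 0.115) or DKO libraries 1 and 2 (0.116 and 0.149). Pole2, a subunit of DNA polymerase epsilon, was at 0 in all 3 LXR-positive AcLDL libraries and at 76.6, 59.2 and 45.1 in DKO, at least 39.9-fold higher against a limit of 3 reads over the group. It was also listed at 0 in 1 LXR-positive KLA, 2 LXR-positive GW3965 and 1 DKO GW3965 library, with 24.8 to 59.9 in the other libraries of those groups, and it was present in all vehicle libraries (26.2 to 55.2).

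Of 12 genes of granulocytes and their precursors tested, 7 were called higher in DKO (S100a9, Ngp, Camp, Ctsg, Ltf, Mpo and Elane; 3.76% of all genes were), none lower, and the median was 1.11 (0.83 with vehicle). Ngp, a protein of neutrophil secondary granules, had 563, 370 and 508 normalized counts against 1224, 1745 and 1527 (1.65 ± 0.20, adjusted p = 0.0021). Mpo, myeloperoxidase of primary granules, had 113, 212 and 142 against 461, 603 and 335 (1.58 ± 0.27, adjusted p = 0.011), and S100a9, a subunit of calprotectin, 1834, 1702 and 2017 against 2777, 4300 and 4061 (0.98 ± 0.16, adjusted p = 0.0086). The summed level of the list was 4526, 4004 and 4534 against 7025, 9375 and 8704.5, without overlap, while Csf3r, the receptor of the granulocyte growth factor, was not called (0.02, adjusted p = 0.96) and Ly6g stayed under 6 normalized counts in all 6 libraries. In bulk RNA, fewer cells of a type and less RNA per cell cannot be told apart. Ngp and Ltf kept their calls without every single library, while 5 were lost without DKO AcLDL library 2 (adjusted p 0.0504 to 0.115), and Elane and Ctsg also without DKO library 1 (0.0761 to 0.0806) or LXR-positive library 1 (0.0674 to 0.0684). Camp and Ctsg were lost without LXR-positive library 2 (0.0616 to 0.0658), Elane without library 3 (0.0652), and Ctsg at equal depth (0.144).

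Of 12 macrophage genes tested, Lyz2 (lysozyme), Mertk and Fcgr3 (an Fc receptor) were lower and Cd68 higher. Of all genes, 4.85% were called lower and 3.76% higher. Lyz2 had 177630, 151200 and 150000 against 87954, 81053 and 107770 normalized counts (-0.80 ± 0.16, adjusted p = 0.015). Csf1r (-0.33, adjusted p = 0.27), Adgre1 (-0.54, adjusted p = 0.060), Itgam and Spi1 (-0.07 and 0.06) were not called. Lyz2 and Fcgr3 lost their calls without LXR-positive AcLDL library 1 or 2 or DKO library 1 or 2 (adjusted p 0.0502 to 0.198), Cd68 without LXR-positive library 2 or DKO libraries 1 and 2 (0.052 to 0.0898), and Fcgr3 also without LXR-positive library 3 (0.0686), any LXR-positive vehicle library or DKO vehicle library 2 (0.0522 to 0.0627). All 12 stromal genes, collagens among them, were on the DKO-higher side (median 1.41), as were 8338 of all 16026 genes. None of these stromal genes was called by limma or edgeR, with 1 called by DESeq2 and 2 at an unadjusted p under 0.05. Their sum was 2084.5, 889 and 410 normalized counts against 2979, 6360 and 589. DKO library 2 was the highest and library 3 the lowest of its group. The part of stromal and granulocyte RNA in the calls reported here was not tested. Genes of dendritic cells (7), erythroid cells and megakaryocytes (4) and mast cells, basophils and eosinophils (5) had no call by limma or edgeR (1, 1 and 1 at an unadjusted p under 0.05; DESeq2 called 1, 0 and 0), and of 9 osteoclast genes Mmp9 was called. Beside these and the stromal counts, 4198 of all 16026 genes had an unadjusted p under 0.05 by limma. Over all genes edgeR called 1189 and DESeq2 1860.

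Immunoglobulin transcripts separated the genotypes without overlap. Of 429 immunoglobulin entries, 4, 7 and 9 had a read in the LXR-positive AcLDL libraries and 128, 137 and 116 in the DKO ones. Constant region genes of secreted antibody, which B cells and plasma cells express, led: Ighg2b was at 0 in every LXR-positive AcLDL library and at 221, 464 and 225 in DKO, at least 201-fold higher. Ighg1 and Ighg2c were likewise at 0 against 123, 188 and 175 and against 95.7, 91.2 and 47.0 (at least 107-fold and 51.6-fold). Igkc, the kappa constant region, had 3.19, 4.45 and 4.38 against 682, 708 and 259 (6.66 ± 0.74, adjusted p = 0.0014), and Jchain, the joining chain of polymeric antibody, 0, 5.94 and 1.46 against 55.1, 118 and 45.1 (4.71 ± 0.75, adjusted p = 0.0079). Ighm, the IgM constant region, was present in both groups and not called (814 ± 48.1 against 1017 ± 279, adjusted p = 0.30). Cd79a, which defines B cells, reached at most 4.78 normalized counts in any LXR-positive and 10.7 in any DKO AcLDL library. The vehicle libraries had the same pattern (7, 15 and 17 against 147, 151 and 119 entries), as did Ighg2b in all 4 treatments. The 5 calls named here held without any single library. At equal depth Ighg2b, Ighg1, Ighg2c, Igkc and Jchain were still called (log2 differences 7.52, 6.68, 5.57, 6.54 and 4.51).

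**Figure D5:**
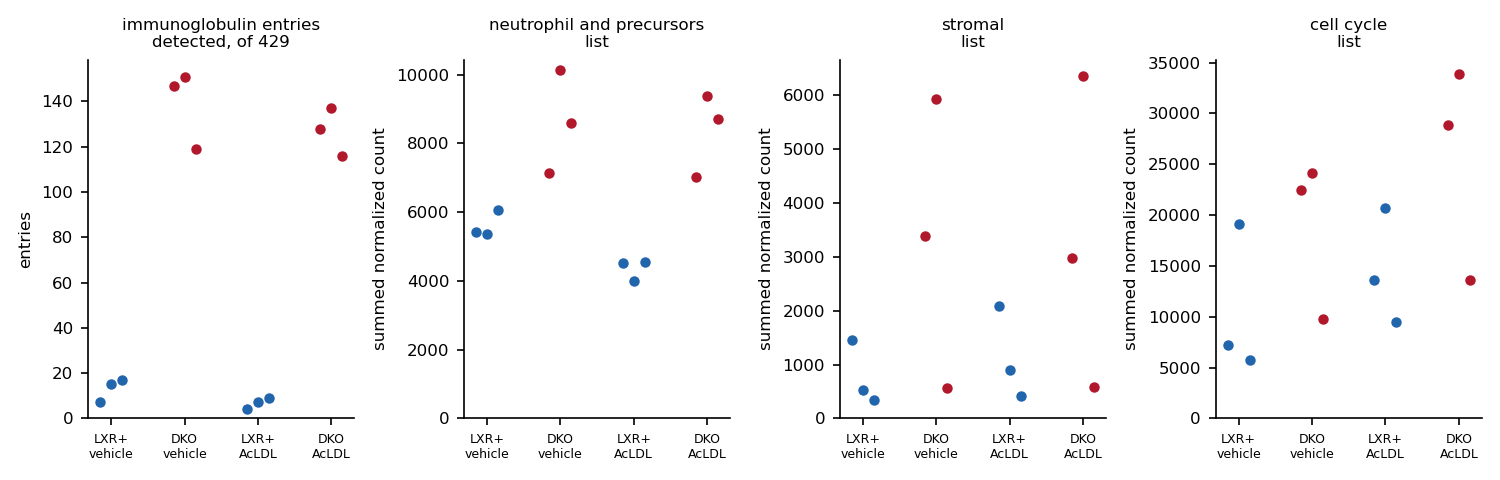
Number of immunoglobulin entries with a read, and summed normalized counts of the tested granulocyte, stromal and cell cycle genes, in each vehicle and AcLDL library (points; blue for LXR-positive and red for DKO). Immunoglobulin entries and the granulocyte sum do not overlap between genotypes under AcLDL, whereas the stromal and cell cycle sums do.

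The other genes with the largest differences were of mixed kinds. Plxdc2, a plexin domain membrane protein, was the firmest of the lower ones, with 2458, 2536 and 2975 normalized counts in LXR-positive and 173, 255 and 314 in DKO libraries (-3.46 ± 0.20, adjusted p = 3e-06). It was lower by nearly as much with vehicle (-3.12, adjusted p = 2e-05) and lower in all 4 treatments. Rab39, a small GTPase of endosomes, had 126, 140 and 104 against 36.8, 28.8 and 53.5 (-1.64 ± 0.23, adjusted p = 0.0050). Sesn1, a stress-induced regulator of mTORC1, had 2159, 5584 and 3324 against 946, 643 and 1531 (-1.81 ± 0.34, adjusted p = 0.013). Plxdc2, Rab39 and Mylip held without any single library, and the other genes of this group did not. Bbs10 (116, 113 and 92.0 against 27.6, 0 and 4.51), Fxyd2 (475, 353 and 523 against 96.5, 81.8 and 247), Plag1 and the mitochondrial transfer RNAs mt-Tn and mt-Tr were also lower, with log2 differences from -4.32 to -1.61. CAAA01070179.1, an entry on an assembly patch, was at 0 in DKO under AcLDL and in 2 of 3 DKO vehicle libraries. Without DKO AcLDL library 2, 8 of these 12 calls ended (adjusted p 0.0507 to 0.132), without library 1 of that group 5 (0.0534 to 0.139) and without library 3 2 (0.0512 to 0.06). Without LXR-positive AcLDL libraries 1, 2 and 3, 3 (0.0515 to 0.101), 7 (0.0502 to 0.111) and 2 (0.0775 to 0.0785) ended.

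Among the higher genes, Rpl24, a ribosomal protein gene entry, had 23.9, 16.3 and 8.76 against 270, 294 and 382 normalized counts (4.28 ± 0.71, adjusted p = 0.0086). It shares 484 exon bases with Gm28037, so reads could be split between the entries, and its vehicle values in LXR-positive mice ranged from 21.4 to 287. RP23-145I16.3 had 14.4, 16.3 and 39.4 against 4948, 5848 and 452 (adjusted p = 0.015) and shares 808 of 1023 exon bases with Ctsd, a lysosomal protease gene. AY036118, within the ribosomal RNA entry Rn18s-rs5 for all of its 923 exon bases, had 6035, 25730 and 3967 against 78658, 174580 and 51027 (3.38 ± 0.77, adjusted p = 0.024). These 3 are uncertain as measures of single genes. Snord21, Snord70 and Snord99, small nucleolar RNAs that guide modification of other RNAs, were higher by 3.10 to 4.18, from 0 to 11.7 normalized counts in LXR-positive and 42.5 to 98.2 in DKO libraries. Without DKO AcLDL library 2 the calls of the 3 small nucleolar RNAs, AY036118 and RP23-145I16.3 ended (adjusted p 0.0658 to 0.123). Snord70, AY036118 and RP23-145I16.3 also ended without DKO library 1 (0.0581 to 0.0799), Snord70 and RP23-145I16.3 without LXR-positive library 2 (0.0597 and 0.0582), and AY036118 without LXR-positive library 1 or 3 (0.0704 and 0.068).

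These small RNAs were part of a class-wide pattern, looked at after its first members were seen. Of 81 small nucleolar RNAs tested, 41 were called higher in DKO and none lower (50.6% called), and of 29 small nuclear RNAs 17 were higher and none lower (58.6%). Their median log2 differences were 2.13 and 2.14 under AcLDL and 1.25 and 0.52 with vehicle. Genes were tested when at least 3 libraries reached 10 normalized counts, so a small RNA could enter through DKO libraries alone. Snord99 had LXR-positive means of 7.67 under AcLDL and 6.04 with vehicle, against 63.2 and 33.4 in DKO. The one-sided class counts can therefore be set in part by this filter, and they were not made at equal depth. Among protein-coding genes 410 were higher and 726 lower of 13000 (8.74%), with a median of -0.00. Snord21 and Snord99 lie wholly within exons of Rpl5 and Snhg12. Calls also depended on level, in 4 classes by the mean over the 12 libraries. Among 5352 genes with a mean under 50, 205 were higher and 27 lower (4.33% called). In the next class 237 were higher and 210 lower of 6503 (6.87%). In the class above that, 152 were higher and 492 lower of 3915 (16.4%). In the highest class 8 were higher and 48 lower of 256 (21.9%). The share called thus rose with level, and the lean moved from higher to lower in DKO.

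Genes near the targeted loci were counted separately, and the shares were not tested against each other. Within 10 Mb of Nr1h2, 15 of 163 genes were called (9.2%, against 7.13% of chromosome 7), and within 10 Mb of Nr1h3, 7 of 128 (5.47%, against 7.98% of chromosome 2). Distances here are between annotated start coordinates. The nearest called genes to Nr1h3 (91184061 to 91202834) were Acp2 and Madd, which flank it. Acp2, a lysosomal acid phosphatase, starts at 91202885, a start-to-start distance of 0.0188 Mb (-0.41 ± 0.12, adjusted p = 0.049). Madd ends at 91183837 (-0.47 ± 0.13, adjusted p = 0.043). With vehicle they differed by -0.52 and -0.55 without a call, and both were lower in DKO in 4 of 4 treatments. Tspan18, a tetraspanin 2.02 Mb away, had 73.4, 47.5 and 64.3 against 151, 185 and 169 normalized counts (1.45 ± 0.20, adjusted p = 0.0047) and was called with vehicle too (1.30, adjusted p = 0.020). The nearest to Nr1h2 were Akt1s1 (0.74), Rras (-0.73), Prr12 (0.64) and Rpl13a (-1.09). Rpl13a, which encodes a ribosomal protein, had 9722, 11411 and 9163 against 4944, 4347 and 4938 (adjusted p = 0.011) and shares 621 exon bases with Flt3l on the same strand. Of these, Tspan18 held without any single library; without DKO AcLDL library 2 the others, 2810002D19Rik included, ended (adjusted p 0.0614 to 0.191). Without DKO library 1 or LXR-positive library 2 all but Tspan18 and Rpl13a ended (0.0502 to 0.145), without LXR-positive library 1 Akt1s1, Rras, Prr12, Acp2 and Madd (0.0636 to 0.148), without LXR-positive library 3 Acp2 and Madd (0.0818 to 0.122), and without DKO library 3 Akt1s1 and Rras (0.0529 to 0.0757). Acp2, Madd and Rras also ended without single vehicle libraries (0.0512 to 0.0649).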

How the data were processed

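Gene expression was measured by single-end 50 bp RNA-seq (SMARTer stranded total RNA kit) in 24 macrophage libraries, from 6 mice with 4 treatments each. The submitters' processing notes name kallisto, DESeq2 and GRCm38, without versions, and the sources used here do not give the strand setting or annotation release. The authors deposited normalized counts (a depth-scaled signal per gene) in 3 tables. Each value was a whole number of reads, within 0.01 read, times a factor per library, so reads were recovered from the deposited values. The deposited tables also hold log2 fold changes, a Wald score and p-values of the authors' DESeq2 test of the difference in response, per the file headers, and none of these is printed.

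Log2(value + 1) was fitted with limma 3.58.1 (trend; R 4.3.3) on the 12 AcLDL and vehicle libraries with 4 group means, over 16026 genes with at least 10 normalized counts in at least 3 libraries, with Benjamini-Hochberg adjustment; log2 differences and their adjusted p-values come from this fit unless another tool is named. The fold understates changes of low genes. edgeR 4.0.16 and DESeq2 1.42.0 were run on the recovered reads, and thinned reads, other filters, scalings and blocks were alternatives, with each library left out in turn. Named genes were the targeted genes, Nnt and sex-linked genes, every called list member (with the 3 lowest p where fewer than 3 were called), the 12 largest non-overlapping calls in each direction with a group mean of at least 50, up to 4 called genes nearest each target within 10 Mb, and calls of the difference of differences; others, such as values set beside these, were chosen after their values were seen. The members and lists were chosen with earlier results of these data known. Bounds for genes at 0 use 3 reads over the group. Same-numbered libraries of the 2 genotypes came from different mice and were not treated as pairs. Their deviations from group means correlated at 0.00498, 0.0315 and 0.27 under AcLDL and -0.286, -0.0805 and 0.292 with vehicle. These values cannot show whether a number marks a shared batch. Within a genotype, same-numbered vehicle and AcLDL libraries correlated at 0.222, 0.28 and 0.341 (LXR-positive) and 0.16, 0.385 and 0.52 (DKO). The main fit treated these libraries as independent, and a fit with the mouse as a random block was an alternative. Promoters came from RefSeq. Some genes counted in the lists are not reported here by name.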

Additional observations from a re-analysis of the deposited data

Results flagged for a closer look

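For 4 genes the genotype difference under AcLDL differed from that with vehicle, by limma's test of the difference of differences, adjusted over all genes tested. The value was 5.74 for Pole2, which was at 0 in the LXR-positive AcLDL libraries, -1.08 for Abca1, -1.40 for Abcg1 and -4.43 for Scd2. With each of the 12 libraries left out in turn, Pole2 was called in 12 fits (adjusted p 0.0011 to 0.0066), Scd2 in 10 (0.00055 to 0.0538), Abcg1 in 3 (0.0095 to 0.107) and Abca1 in 2 (0.0249 to 0.111). Under the other settings, edgeR and DESeq2 among them, Abcg1 and Scd2 were called in 12 of 12 (largest adjusted p 0.0354 and 0.0268). Abca1 was called in 11 of 12 (largest 0.0612) and Pole2 in 10 of 11. The remaining setting, a fit to all 24 libraries, gave Pole2 an adjusted p of 0.9997, so its call depended on which libraries were fitted.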

How the results depend on the processing

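The AcLDL count of 1379 (602 higher, 777 lower) was 820 with thinned reads and 123 to 1633 with 1 library left out. The direction split moved to 569 and 500 without a filter, 464 and 880 with a mean of at least 50, and 521 and 481 with only the 6 libraries compared. The vehicle count of 47 was 30 with a mean of at least 50, 10 with only 6 libraries, 73 with all 24, 316 by DESeq2 and 19 to 117 with 1 library left out. The difference of differences gave 4 calls, 7 with the mouse as a random replicate block, 13 by DESeq2 and 1 to 5 with 1 library left out. With the replicate number as a block the 3 counts were 1433, 61 and 4, and with the mouse as a random block 1361, 45 and 7. The numbers do not pair mice across genotypes, and whether they mark a shared batch is not given. Of 131 named genes 90 were called, 20 of them without any single library. No direction reversed, which is weak evidence of stability. Most of these genes were named for their calls or low p-values in the main fit, and the other settings reuse its libraries. The cause of these shifts was not tested. DKO AcLDL libraries were deeper than LXR-positive ones, without overlap, so depth limits low genes more in the latter.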

Other observations

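A few genes outside the lists were chosen after their values were seen. Their genotype groups did not overlap within any of the 4 treatments, and they kept their calls without any single library. The treatments used the same mice, so they are not independent repeats. Cat, catalase, which breaks down hydrogen peroxide (chromosome 2, 103453849 to 103485160), had 4812, 5727 and 5738 normalized counts in LXR-positive and 1862, 1716 and 2315 in DKO libraries under AcLDL (log2 difference -1.47 ± 0.14, adjusted p = 0.00035), and -1.37 with vehicle. Ide, the insulin-degrading enzyme, had 737, 840 and 857 against 301, 284 and 333 (-1.40 ± 0.13, adjusted p = 0.00042). Both were lower in DKO in 4 of 4 treatments.

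Mid1, a microtubule-associated ubiquitin ligase, had 153, 160 and 241 against 1129, 1581 and 939 (2.71 ± 0.23, adjusted p = 0.00015). It shares 951 exon bases with G530011O06Rik on the opposite strand. Pgr, the progesterone receptor, had 11.2, 19.3 and 21.9 against 79.6, 88.0 and 87.6 (2.27 ± 0.33, adjusted p = 0.0053). Both were higher in DKO in 4 of 4 treatments.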
